A study of Homo sapiens with 25 samples.

Results

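The 46 interferon genes and interferon-stimulated genes described here were taken as a list of symbols from the 60179 Ensembl gene identifiers in the RNA table of HEC-1A cells, and all 46 had an identifier. They comprise 4 interferons, 3 RNA sensors, 4 transcription factors and 35 effector or modifier genes. HEC-1A is an established human endometrial adenocarcinoma line of epithelial type, and the labels give its genotype as WT in all samples. RNA-seq and ATAC-seq (transposon insertion into accessible DNA) each had 3 libraries of cells given 20 µM THC for 72 h, 3 given 20 µM THC for 24 h and 3 of untreated cells. CUT&RUN for H3K4me3, a histone mark of active promoters, had 3 libraries with 20 µM THC, whose labels give no duration, and 3 of untreated cells. THC is tetrahydrocannabinol, the main psychoactive compound of cannabis. The labels name no time and no vehicle for untreated cells, so THC exposure, solvent and time in culture cannot be told apart. Replicates are labelled as biological, yet no source states separate cultures, so each p-value reflects the spread among these libraries alone, possibly a technical one.

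Interferons are secreted proteins that cells make when sensors such as RIG-I and MDA5 (gene IFIH1) detect foreign or misplaced nucleic acid and activate the transcription factor IRF3. Type I interferons (such as IFNB1) and type III interferons (the lambda genes IFNL1, IFNL2 and IFNL3) bind separate receptors, and both signal through JAK kinases to a complex that includes STAT2 and IRF9. That complex, and IRF3 itself at some genes, binds the interferon-stimulated response element in the promoters of genes whose products block viral replication, and epithelial cells are a main target of the lambda interferons.

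The promoters of the 4 members with the largest called rise in RNA at 24 h that have a promoter entry are shown because each holds a run of letters like that response element. Each is the 250 bases before an annotated start (RefSeq, GRCh38.p14), 5′ to 3′, with every match to GAAA, any 2 bases and GAAA again, on either strand, in capitals. Overlapping matches form 1 run of capitals in IFNL1 and in ISG15.
RSAD2, chr2:6877527-6877776, plus strand: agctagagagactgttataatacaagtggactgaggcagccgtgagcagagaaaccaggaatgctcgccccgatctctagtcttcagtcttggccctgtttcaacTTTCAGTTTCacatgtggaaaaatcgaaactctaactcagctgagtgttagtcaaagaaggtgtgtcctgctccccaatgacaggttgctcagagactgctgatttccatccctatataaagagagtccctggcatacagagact
IFNL1, chr19:39296157-39296406, plus strand: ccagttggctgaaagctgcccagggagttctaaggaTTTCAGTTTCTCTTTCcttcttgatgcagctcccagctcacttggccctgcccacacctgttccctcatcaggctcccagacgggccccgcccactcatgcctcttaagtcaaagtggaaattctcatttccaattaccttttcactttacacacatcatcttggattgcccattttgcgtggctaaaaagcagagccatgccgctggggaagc
ISG20, chr15:88638766-88639015, plus strand: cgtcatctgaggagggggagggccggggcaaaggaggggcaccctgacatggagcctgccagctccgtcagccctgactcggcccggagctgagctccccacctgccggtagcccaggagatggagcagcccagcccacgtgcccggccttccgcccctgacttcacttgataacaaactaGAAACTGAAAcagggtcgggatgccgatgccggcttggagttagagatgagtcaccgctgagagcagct
ISG15, chr1:1013247-1013496, plus strand: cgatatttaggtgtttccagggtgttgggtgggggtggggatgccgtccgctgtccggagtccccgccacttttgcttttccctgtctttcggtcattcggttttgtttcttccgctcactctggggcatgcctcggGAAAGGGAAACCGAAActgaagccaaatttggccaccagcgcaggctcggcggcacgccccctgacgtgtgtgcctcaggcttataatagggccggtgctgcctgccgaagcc
Counted from the annotated start, the match in RSAD2 began at base -145, those in IFNL1 at -214 and -208, that in ISG20 at -69, and those in ISG15 at -113 and -107. Of the 37 members with an entry in the promoter table, 25 (67.6%) held this response-element-like run between 250 bases before and 50 after a start. Among all 15843 genes in the table, 659 (4.16%) held it. A match is a description of letters and not of binding. Of the 25 members with a match, 15 were higher in RNA at 24 h, 3 were lower, 2 were not called and 5 were too low to test. Of the 12 without one, 6 were higher, 2 were not called and 4 were too low. The run was present in OAS3 and PARP9, which fell at 24 h, and absent from the windows of STAT2, IRF1 and IRF9, which rose. An NF-kB-like run, GGGA, any base and then TTTCC, was found in 2 of the 37 members (5.41%) and 0.663% of genes, and a CHOP-ATF4-like run, TGATGNAA, in 2 of 37 (5.41%) and 3.6% of genes.

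RNA levels were deposited as TPM (a length-corrected share of transcripts, from which the depth of a library cannot be read). Genes with a mean of at least 1 TPM over the 9 libraries were tested, 13753 in all, and a gene was called when the adjusted p of limma was under 0.05. Changes are given as differences of log2(TPM + 1), a scale that understates those of low genes. Of the 46 members 32 were tested, and 30 of these averaged at least 1 TPM in every group. IFNL1 passed through its 24 h libraries and IFI27 through its THC libraries, so the filter favoured a difference in both. Their calls, which the counts below include, lend no support. The other 14 never exceeded 1.86 TPM in a library: IFNB1, IFNL2, IFNL3, IRF7, OAS2, MX2, UBE2L6, IFITM1, IFITM2, BST2, SAMD9L, TRIM22, IFI44L and XAF1. In bulk RNA, fewer cells that express a gene and less of its RNA per cell cannot be told apart.

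After 24 h of THC, 24 of the 32 tested members were higher than in untreated cells and 4 were lower, with a median log2 fold change of 0.68. Of all tested genes 25% were called higher and 51.7% lower, with a median of -0.23. At 72 h, 18 members were higher than in untreated cells and 7 were lower, with a median of 0.26, while 40.1% of all tested genes were higher and 33% lower, with a median of 0.06. Between the times, 9 members were higher at 72 h than at 24 h and 20 were lower, with a median of -0.36, against 54.9% higher and 17.8% lower of all tested genes and a median of 0.26. Centring each library on its median, which takes out most of that shift of all genes, gave 26 higher and 2 lower members at 24 h, 11 and 8 at 72 h, and 4 and 21 at 72 h against 24 h. Of the 13753 tested genes, centring called 4954 higher and 5128 lower at 24 h. The same counts were 4790 and 5347 at 72 h, and 4176 and 5217 at 72 h against 24 h. The share of members higher at 72 h was then near that of all tested genes. After centring, 49.1% of all calls at 24 h were rises against 32.6% without it, and 44.5% against 75.5% for 72 h against 24 h. Mitochondrially encoded RNA, which moved with the groups, summed to 11635 to 13663 TPM at 72 h, 33014 to 34121 TPM at 24 h and 70021 to 76909 TPM in untreated cells. The medians of 72 h and 24 h share the untreated libraries.

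The rise at 24 h faded in most members that showed it. Of the 24 members higher at 24 h, 19 (79.2%) were lower at 72 h than at 24 h, as were 36.3% of the 3433 genes higher at 24 h. Both steps together were called in 59.4% of the tested members and in 9.05% of all tested genes. The share of all tested genes with both steps was counted without centring only. Leaving out any 1 RNA library gave 18 or 19 members with both steps, and centring gave 19. Among these 19, 10 were still above untreated cells at 72 h, 5 (IFIT2, OASL, ISG15, HERC6 and IFITM3) were not called against untreated cells, and 4 (IFIT1, DDX60, HERC5 and IFI44) were below them. The 1245 genes of all those tested that had this pattern split into 627 above, 409 not called and 209 below. After centring, 6 of the 19 members were above untreated cells, since IFNL1, IFIT3, OAS1 and SAMD9 lost that call, 9 were not called and 4 were below. The other 5 members that were higher at 24 h, IFIH1, STAT2, IRF1, IRF9 and TRIM21, were higher again at 72 h than at 24 h, although IFIH1 (-0.04) and TRIM21 (-0.02) turned direction between the times after centring.

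**Figure D1:**
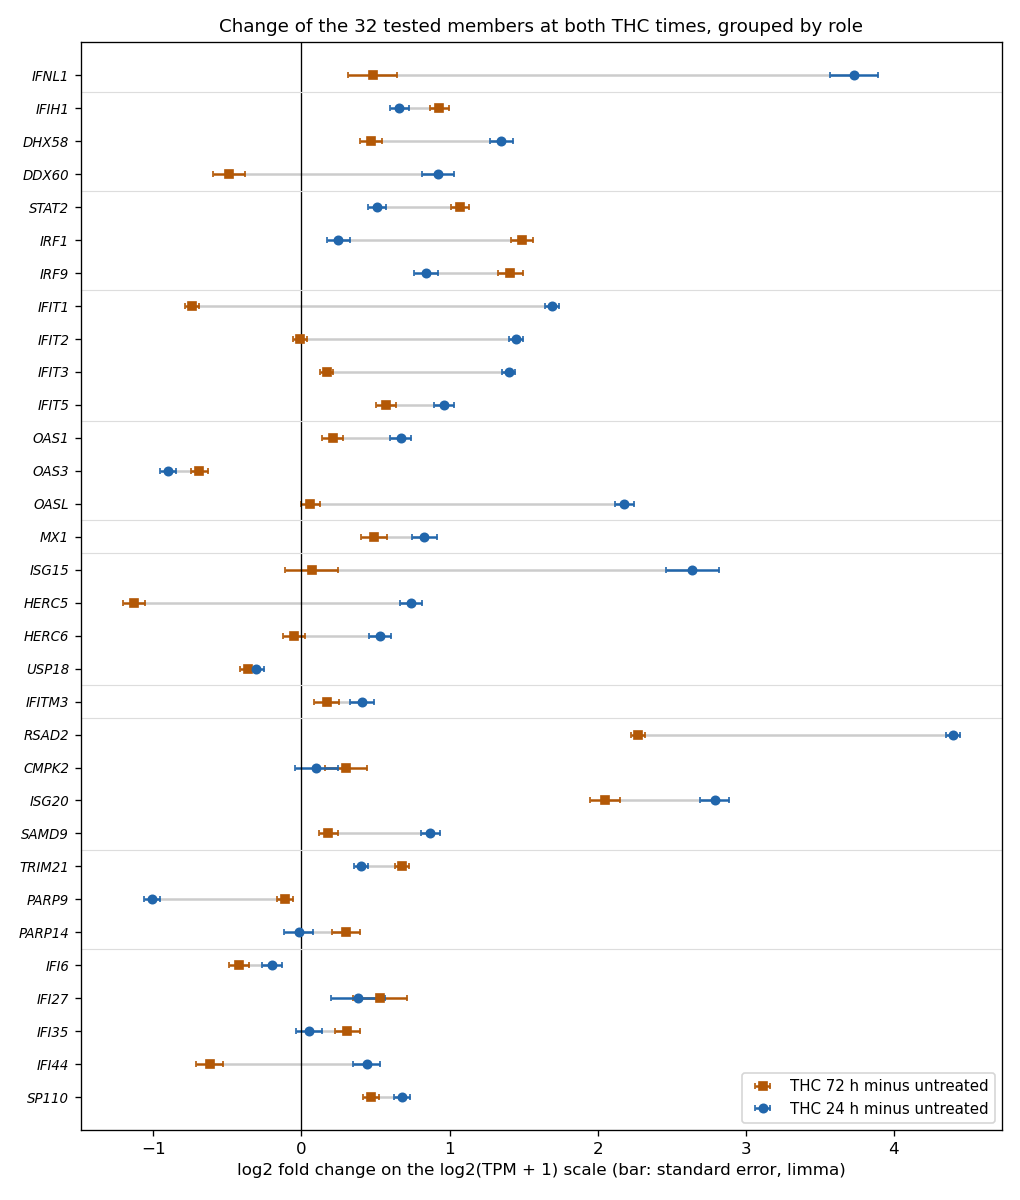
log2 fold change (x axis, log2(TPM + 1) scale, bars are standard errors from limma) of the 32 tested members, one per row and grouped by role, at 72 h against untreated cells (squares) and at 24 h against untreated cells (circles). In 24 rows the circle lies right of 0 and was called, and RSAD2 (4.40) and IFNL1 (3.73) lie farthest right.

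Among the interferons, IFNL1 (chr19:39296407-39298673) changed most. Its level was 0.945, 0.859 and 1.43 TPM at 72 h, 21.5, 16.5 and 18.4 TPM at 24 h, and 0.294, 0.335 and 0.868 TPM in untreated cells. The 24 h libraries stood above all 6 others, while 72 h and untreated libraries overlapped. IFNL1 passed the filter through its 24 h libraries, so its calls lend no support. The 24 h change was 3.73 (SE 0.163, limma adjusted p = 1.79e-08), a 37.6-fold ratio of mean TPM that rests on untreated levels below 1 TPM. At 72 h it was 0.48 above untreated (adjusted p = 0.0216), and this call was lost without 72 h replicate 3, without untreated replicate 1 or 2, without the filter (adjusted p = 0.0712) and after centring; adjusted p reached 0.0844 without 1 library.

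The other 3 interferon members reached at most 1.86 TPM and were under the filter. IFNB1, the type I interferon beta (chr9:21077104-21077942), had 0.272, 0.388 and 0.785 TPM at 72 h, 0.954, 1.07 and 1.29 TPM at 24 h, and 0.114, 0.0379 and 0.0436 TPM in untreated cells, and the 3 groups did not overlap. IFNL2 had 0.412, 0.153 and 0.273 TPM at 72 h, 1.86, 0.669 and 1.5 TPM at 24 h, and 0.0579, 0.0892 and 0.103 TPM in untreated cells, also without overlap. IFNL3 had 0.276, 0.376 and 0.172 TPM at 72 h, 1.66, 1.04 and 1.23 TPM at 24 h, and 0.302, 0.187 and 0.465 TPM in untreated cells, so only its 24 h libraries stood apart. IFNL2 and IFNL3 are near-identical copies, between which reads may be split. Fitted without the filter, IFNB1 (0.98, limma adjusted p = 0.000326), IFNL2 (1.08, adjusted p = 0.00171) and IFNL3 (0.81, adjusted p = 0.000863) were higher at 24 h than untreated. Of 17 other interferon genes (13 alpha genes, IFNW1, IFNE, IFNK and IFNG) none was tested, 14 were listed at 0 in every library and IFNE, which averaged most, reached at most 0.637 TPM.

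All 3 RNA sensors rose at 24 h and then parted. IFIH1, which encodes MDA5, a sensor of long double-stranded RNA, averaged 21.4 ± 0.935 TPM at 72 h, 17.7 ± 1.18 TPM at 24 h and 10.8 ± 0.568 TPM in untreated cells (SD, n = 3 libraries each). DHX58, which encodes the regulator LGP2, had 7.39, 7.42 and 6.34 TPM at 72 h, 13.6, 13.9 and 13.6 TPM at 24 h, and 5.03, 5.02 and 4.34 TPM in untreated cells. All its 24 h libraries were above all its 72 h libraries, and these above all untreated ones (1.35 at 24 h, limma adjusted p = 1.17e-07). DDX60, a helicase that promotes RIG-I-like signalling, had 8.24, 5.96 and 6.89 TPM at 72 h, 18.7, 22.9 and 19.4 TPM at 24 h, and 10.8, 10.4 and 9.52 TPM in untreated cells. Its 72 h libraries lay below every untreated one, with a change of 0.92 at 24 h and -0.49 at 72 h (limma adjusted p = 2.4e-05 and 0.00219).

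The 3 tested transcription factors had their highest levels at 72 h. STAT2, which carries an activating domain of the complex with IRF9, had 48.7, 44.6 and 45.4 TPM at 72 h, 30.1, 33.5 and 29.8 TPM at 24 h, and 21.4, 22.3 and 20.7 TPM in untreated cells. IRF9, the DNA-binding part of that complex, had 27.6, 27.6 and 29.3 TPM at 72 h, 17.5, 21.0 and 17.6 TPM at 24 h, and 10.6, 8.99 and 10.3 TPM in untreated cells. IRF1, a factor also induced by interferon gamma, had 32.2, 31.0 and 28.5 TPM at 72 h, 13.2, 12.4 and 11.4 TPM at 24 h, and 9.65, 11.1 and 10.0 TPM in untreated cells. In all 3 genes the groups did not overlap. At 72 h against untreated cells IRF1 rose by 1.49 (SE 0.075), IRF9 by 1.41 (SE 0.083) and STAT2 by 1.07 (SE 0.06), with limma adjusted p of 5.23e-08, 1.47e-07 and 1.16e-07. The small rise of IRF1 at 24 h (0.25, adjusted p = 0.0128) was lost without untreated replicate 1 (adjusted p = 0.051). In all, 7 members were above both untreated cells and 24 h cells at 72 h (IFIH1, STAT2, IRF1, IRF9, TRIM21, PARP14 and IFI35). This was a pattern of 27.4% of all tested genes. After centring 3 (IRF1, IRF9 and STAT2) remained, and the share of all tested genes was not counted there. IRF7, the factor that amplifies alpha interferon synthesis, reached at most 0.358 TPM in a library.

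**Figure D2:**
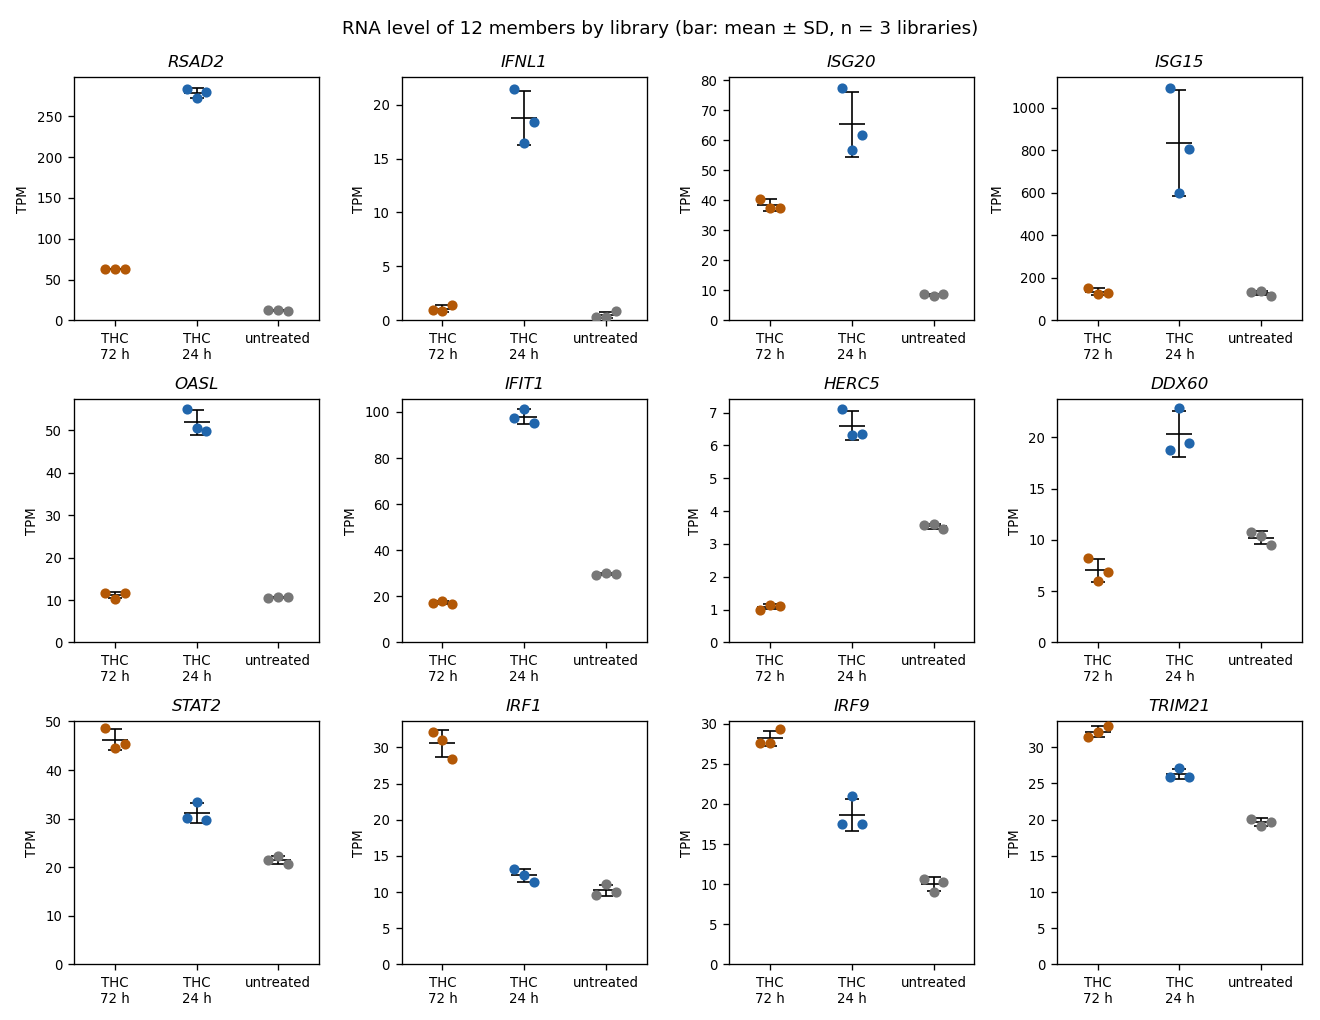
TPM (y axis, linear from 0) of 12 members in each RNA library at THC 72 h, THC 24 h and in untreated cells, with mean ± SD of 3 libraries. RSAD2, IFNL1, ISG20, ISG15, OASL, IFIT1, HERC5 and DDX60 are highest at 24 h, whereas STAT2, IRF1, IRF9 and TRIM21 are highest at 72 h.

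The largest effector change was in RSAD2 (viperin, a radical enzyme that makes a chain-terminating nucleotide), which had 62.6, 63.5 and 62.6 TPM at 72 h, 283, 272 and 280 TPM at 24 h, and 12.8, 12.5 and 11.5 TPM in untreated cells. It rose by 4.40 (SE 0.047, limma adjusted p = 2.24e-12) at 24 h and was still 2.27 above untreated cells at 72 h, the groups lying far apart. CMPK2, a mitochondrial nucleotide kinase encoded on the opposite strand beside RSAD2, averaged 11.5 ± 1.25 TPM at 72 h, 9.91 ± 1.63 TPM at 24 h and 9.23 ± 1.93 TPM in untreated cells, with overlapping groups and no call in any comparison. ISG20, an RNA exonuclease, had 40.6, 37.4 and 37.4 TPM at 72 h, 77.6, 56.7 and 61.8 TPM at 24 h, and 8.69, 8.16 and 8.75 TPM in untreated cells. Its groups did not overlap either, with changes of 2.79 at 24 h and 2.05 at 72 h (limma adjusted p = 4.53e-09 and 3.74e-08). SAMD9, a restriction factor of poxviruses, rose by 0.87 at 24 h. Its 0.18 at 72 h (adjusted p = 0.0294) was lost after centring and without any 1 of 5 libraries, the 3 of 72 h and untreated replicates 1 and 3, with an adjusted p of up to 0.104.

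ISG15, a ubiquitin-like protein attached to other proteins, was the most abundant member at 24 h. It had 154, 124 and 129 TPM at 72 h, 1095, 599 and 805 TPM at 24 h, and 132, 138 and 117 TPM in untreated cells. The 24 h libraries differed among themselves more than those of the other groups and still all exceeded them, with a change of 2.64 (SE 0.18, limma adjusted p = 3.87e-07), while 72 h and untreated libraries overlapped (0.07, adjusted p = 0.753). HERC5, the ligase that attaches ISG15, had 0.991, 1.14 and 1.12 TPM at 72 h, 7.1, 6.33 and 6.35 TPM at 24 h, and 3.58, 3.60 and 3.46 TPM in untreated cells. Every 72 h library was thus below every untreated one, by -1.13 on the log2 scale (adjusted p = 4.51e-07). HERC6, its relative next to it on chromosome 4, rose by 0.53 at 24 h and differed by -0.05 from untreated cells at 72 h without a call. USP18, which removes ISG15 and restrains the type I receptor, fell by 0.31 at 24 h and by 0.36 at 72 h, the 24 h call being lost after centring (-0.09). UBE2L6, the conjugating enzyme for ISG15, was listed at 0 in every 72 h library and reached at most 0.0682 TPM elsewhere.

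The 4 IFIT genes, which lie side by side on chromosome 10 and encode proteins that bind viral RNA, all rose at 24 h but reached different levels by 72 h. IFIT1 had 17.1, 18 and 16.8 TPM at 72 h, 97.5, 101 and 95.2 TPM at 24 h, and 29.1, 29.9 and 29.7 TPM in untreated cells. IFIT2 had 36.5, 38.4 and 34.8 TPM at 72 h, 99.7, 106 and 102 TPM at 24 h, and 36.1, 37.9 and 36.1 TPM in untreated cells. IFIT3 had 43.7, 45.2 and 42.3 TPM at 72 h, 102, 107 and 102 TPM at 24 h, and 38.8, 39.3 and 38.2 TPM in untreated cells. At 72 h IFIT1 was thus below all untreated libraries (-0.74, limma adjusted p = 2.33e-07), IFIT2 overlapped them (-0.01, adjusted p = 0.921) and IFIT3 lay just above (0.17, adjusted p = 0.00464, lost after centring). IFIT5 kept more of its smaller rise, with 0.96 at 24 h and 0.57 at 72 h.

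The OAS family, which makes the second messenger that activates RNase L, did not move as one. OASL, a family member without that enzyme activity, had 11.6, 10.3 and 11.6 TPM at 72 h, 55.1, 50.6 and 49.9 TPM at 24 h, and 10.5, 10.7 and 10.7 TPM in untreated cells. It was thus raised at 24 h (2.18, limma adjusted p = 1.06e-09) and overlapped untreated cells at 72 h. OAS1 rose by 0.67 at 24 h, and its 0.21 at 72 h (adjusted p = 0.0235) was lost after centring and without 72 h replicate 1 or untreated replicate 1 or 3, with an adjusted p of up to 0.0809. OAS3, between OAS1 and OAS2 on chromosome 12, averaged 32.6 ± 1.62 TPM at 72 h, 28.1 ± 0.659 TPM at 24 h and 53.4 ± 3.08 TPM in untreated cells (SD, n = 3 each). It fell by 0.90 at 24 h and by 0.69 at 72 h (limma adjusted p = 1.99e-07 and 1.5e-06). OAS2 had 0.132, 0.164 and 0.151 TPM at 72 h, 1.01, 1.09 and 0.771 TPM at 24 h, and 0.134, 0.179 and 0.208 TPM in untreated cells, and was called higher at 24 h (0.73, adjusted p = 3.8e-05) in the fit without the filter.

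Of the remaining members, MX1, a GTPase that blocks influenza virus, averaged 4.48 ± 0.369 TPM at 72 h, 5.95 ± 0.449 TPM at 24 h and 2.90 ± 0.227 TPM in untreated cells, while its neighbour MX2 was listed at 0 in all but 2 libraries. IFITM3, a membrane protein that blocks virus entry, averaged 266.5 ± 18.8 TPM at 72 h, 317 ± 40.3 TPM at 24 h and 236 ± 3.83 TPM in untreated cells. Its rise at 24 h was 0.41 (limma adjusted p = 0.00094). Its fall by 0.24 between the times was lost without 72 h replicate 2 or 24 h replicate 1 (adjusted p up to 0.0807). The related IFITM1 and IFITM2 reached at most 0.382 TPM, and reads may also be split among the IFITM genes, IFITM3 included.

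PARP9, which works with the ligase DTX3L, had 14, 13.9 and 13.4 TPM at 72 h, 6.81, 7.17 and 6.78 TPM at 24 h, and 15, 15.3 and 14.6 TPM in untreated cells. It was the member with the largest fall at 24 h, by 1.01 (SE 0.054, limma adjusted p = 7.01e-08), and it differed by -0.11 from untreated cells at 72 h without a call (adjusted p = 0.0842). DTX3L, encoded beside it, fell by 0.77 at 24 h and was higher than untreated by 0.27 at 72 h. IFI44 (chr1:78649789-78664078), of unclear biochemical function, had 26.7, 33.0 and 24.4 TPM at 72 h, 60.6, 56.8 and 59.5 TPM at 24 h, and 43.6, 42.4 and 43.3 TPM in untreated cells. Its 3 groups did not overlap, and its neighbour IFI44L stayed below 1 TPM. SP110, a nuclear body protein, rose by 0.68 at 24 h and 0.47 at 72 h. IFI6, a mitochondrial survival protein, fell by 0.20 at 24 h (adjusted p = 0.0202) and by 0.42 at 72 h (adjusted p = 0.000272), and the 24 h value turned to 0.01 after centring and lost its call without 24 h replicate 1 or 3 or untreated replicate 1 (adjusted p up to 0.0843). IFI27, IFI35 and PARP14 were not called at 24 h, although after centring IFI27 (0.60, adjusted p = 0.0143) and IFI35 (0.27, adjusted p = 0.0229) were, and IFI27 also without 72 h replicate 1 or untreated replicate 1. These 3 were higher at 72 h by 0.53, 0.31 and 0.30, each call being lost after centring, for IFI27 also without 72 h replicate 1 or untreated replicate 2 or 3 and for PARP14 also without 72 h replicate 2 or untreated replicate 3.

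Other genes of the pathway were counted from lists compiled with results of these data known. Of 10 genes that IRF3 can induce without interferon, 8 were tested, all but 1 of them members already described. The 8 were called higher at 24 h (25% of all tested genes) and lower at 72 h than at 24 h (17.8%). IFNL1 of this list passed the filter through its 24 h libraries, so its calls lend no support. CCL5, a T cell chemokine and the only tested gene of this list that is no member, had 4.56, 5.20 and 5.56 TPM at 72 h, 60.1, 56.2 and 54.2 TPM at 24 h, and 2.18, 1.67 and 1.42 TPM in untreated cells, without overlap (4.40 at 24 h, limma adjusted p = 3.78e-10). Among 32 further interferon-stimulated genes outside the 46, 26 were tested. At 24 h, 10 were higher and 9 lower (median -0.04), against 25% and 51.7% of all tested genes. After centring these were 13 and 6 (median 0.19), beside 4954 and 5128 of all 13753 tested genes. At 72 h, 15 were higher and 8 lower (median 0.42), against 40.1% and 33%. Between the times, 16 were higher and 5 lower at 72 h (median 0.36), shares near the 54.9% and 17.8% of all tested genes. After centring these were 11 and 9, beside 4176 and 5217 of all 13753 tested genes. In this list SLFN5, a member of the Schlafen family, rose by 2.59 at 24 h and 3.50 at 72 h, and BATF2, a leucine zipper factor, by 1.68 and 1.75. TNFSF10, which encodes the death ligand TRAIL, fell by 1.66 at 24 h and by 1.11 at 72 h, and TDRD7, an inhibitor of virus-induced autophagy, fell by 1.04 at 24 h and by 0.24 at 72 h.

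Of 12 genes of nucleic acid sensing and signalling, 9 were tested. At 24 h, 3 were higher and 2 lower, against 25% and 51.7% of all tested genes. After centring these were 5 and 1, beside 4954 and 5128 of all 13753 tested genes. At 72 h, 6 were higher and 0 lower, against 40.1% and 33%. After centring these were 6 and 1, beside 4790 and 5347 of all tested genes. RIGI, the sensor of RNA ends, averaged highest at 24 h, with 19.8, 21.4 and 20.7 TPM at 72 h, 34.3, 38.3 and 36.3 TPM at 24 h, and 16.4, 18 and 16.9 TPM in untreated cells (1.04 at 24 h, limma adjusted p = 1.02e-07). TICAM1, the adaptor of TLR3, rose by 1.31 at 24 h. IRF3 changed by -0.02 at 24 h without a call (adjusted p = 0.783; 0.20 and called after centring) and rose by 0.40 at 72 h. CGAS and STING1, which sense cytosolic DNA, stayed at or below 0.343 TPM in every library.

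Of 11 receptor, JAK and STAT genes, 3 were higher and 4 lower at 24 h (6 and 0 after centring), and 8 were higher and 1 lower at 72 h (8 and 2). JAK1, a kinase shared by both receptors, had 6.56, 7.12 and 5.74 TPM at 72 h, 8.73, 8.03 and 8.41 TPM at 24 h, and 1.85, 1.98 and 1.63 TPM in untreated cells, without overlap (1.74 at 24 h, limma adjusted p = 4.7e-08). IFNLR1, the specific chain of the lambda receptor, rose by 0.31 at 24 h and by 1.05 at 72 h. IFNAR1, a chain of the type I receptor, fell by 0.24 at 24 h, a call lost after centring, and rose by 0.27 at 72 h. Of 9 inhibitors of the pathway, 8 were tested, of which 2 were higher and 4 lower at 24 h (3 and 3 after centring) and 3 higher and 2 lower at 72 h (2 and 2). Of 6 factors that assemble on the IFNB1 enhancer, 5 were tested. At 24 h, 2 were higher (RELA and JUN) and 1 lower (4 and 0 after centring). Beside all these lists, 25% of all tested genes were higher and 51.7% lower at 24 h, and 40.1% and 33% at 72 h. After centring, 4954 of the 13753 tested genes were higher and 5128 lower at 24 h, and 4790 and 5347 at 72 h.

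**Figure D3:**
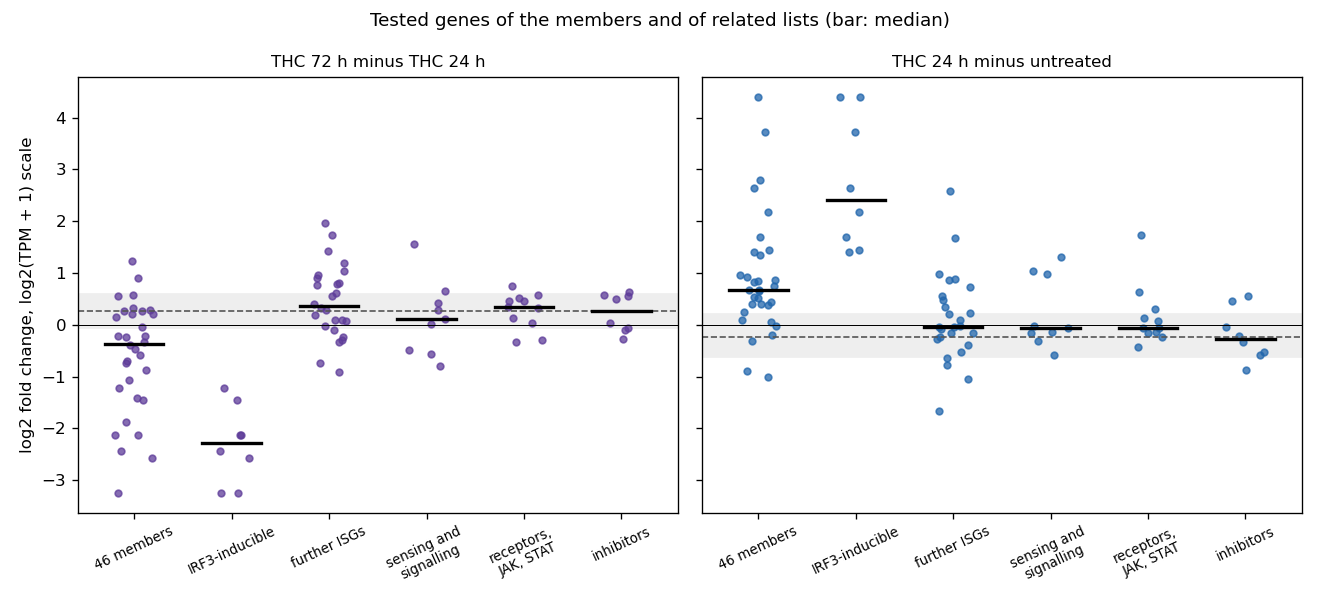
log2 fold change (y axis, log2(TPM + 1) scale) of each tested gene at 72 h against 24 h (left) and at 24 h against untreated cells (right), for the members and 5 related lists, with a bar at each median. The grey band spans the interquartile range of all tested genes and the dashed line their median; the IRF3-inducible list lies at 2.41 on the right and -2.29 on the left.

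All 6 epithelial markers examined averaged at least 1 TPM in every group, and they summed to 3191 to 3439 TPM at 72 h, 4426 to 4489 TPM at 24 h and 2550 to 2666 TPM in untreated cells. Of 10 immune markers, the 9 other than CD68 summed to at most 0.533 TPM at 72 h, 0.886 TPM at 24 h and 0.311 TPM in untreated cells. PTPRC, the common leukocyte antigen, was listed at 0 in all but 1 library. CD68, a lysosomal protein used as a macrophage marker, reached 29.1 to 39.4 TPM at 72 h, 127 to 137 TPM at 24 h and 0.190 to 0.298 TPM in untreated cells, and its part in the results was not tested. Fibroblast markers summed to at most 0.406 TPM and endothelial markers to at most 0.357 TPM in any library.

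The ATAC and H3K4me3 peak lists were then read at the starts of the members. A start counted as listed when any peak overlapped the 1000 bases on either side of it, for 15812 genes with an annotated start, 37 of them members. No member gained an ATAC peak (3 of 3 THC and 0 of 3 untreated libraries) at 72 h or at 24 h, as against 0.0126% and 0.00632% of genes, or an H3K4me3 peak, as against 0.0949% of genes. Only 1 member, SAMD9, lost its ATAC peak (0 of 3 THC and 3 of 3 untreated libraries) at both times, as did 0.898% of genes at 72 h and 0.588% at 24 h. No member lost an H3K4me3 peak, against 0.0126% of genes. With 3 against 3 libraries no test was made. ATAC lists held 38495 to 80773 peaks at 72 h, 57356 to 78290 at 24 h and 65042 to 150884 in untreated cells. With equal numbers of peaks per library, 0.297% of genes lost an ATAC peak at 72 h and 0.177% at 24 h. Gains were then found in 0.0506% of genes at 72 h and 0.0696% at 24 h. The part of peak number in the listing was examined only through this alternative.

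The share of members listed in every library lay near that of all genes. ATAC peaks were listed in all 6 libraries at 21 of 37 members (56.8%) for 72 h and untreated cells, as at 52.4% of genes, and at 25 (67.6%) for 24 h and untreated cells, as at 60.7% of genes. H3K4me3 peaks were listed in all 6 libraries at 25 members (67.6%) and 61.8% of genes. ISG15, ISG20, STAT2, IRF1 and IRF9 had both kinds of peak in every library. At the RSAD2 start whose promoter is printed above, chromosome 2 position 6877777, an ATAC peak was listed in 2 of 3 libraries at 72 h, 3 of 3 at 24 h and 3 of 3 of untreated cells, with H3K4me3 in all 6, and the window of its outer start, shared with CMPK2, held both in every library. The ATAC peaks at the printed start spanned bases -223 to 339 at 72 h, -198 to 382 at 24 h and -212 to 124 in untreated cells. The IFNL1 start, by contrast, had an ATAC peak in 1 untreated library only and H3K4me3 in none. IFNL1 RNA averaged 1.08 TPM at 72 h and 18.8 TPM at 24 h, and the H3K4me3 labels give no THC duration. IFNB1 had neither peak in any library, and IFNL2 and IFNL3 had ATAC peaks in all 9 libraries and H3K4me3 in none.

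**Figure D4:**
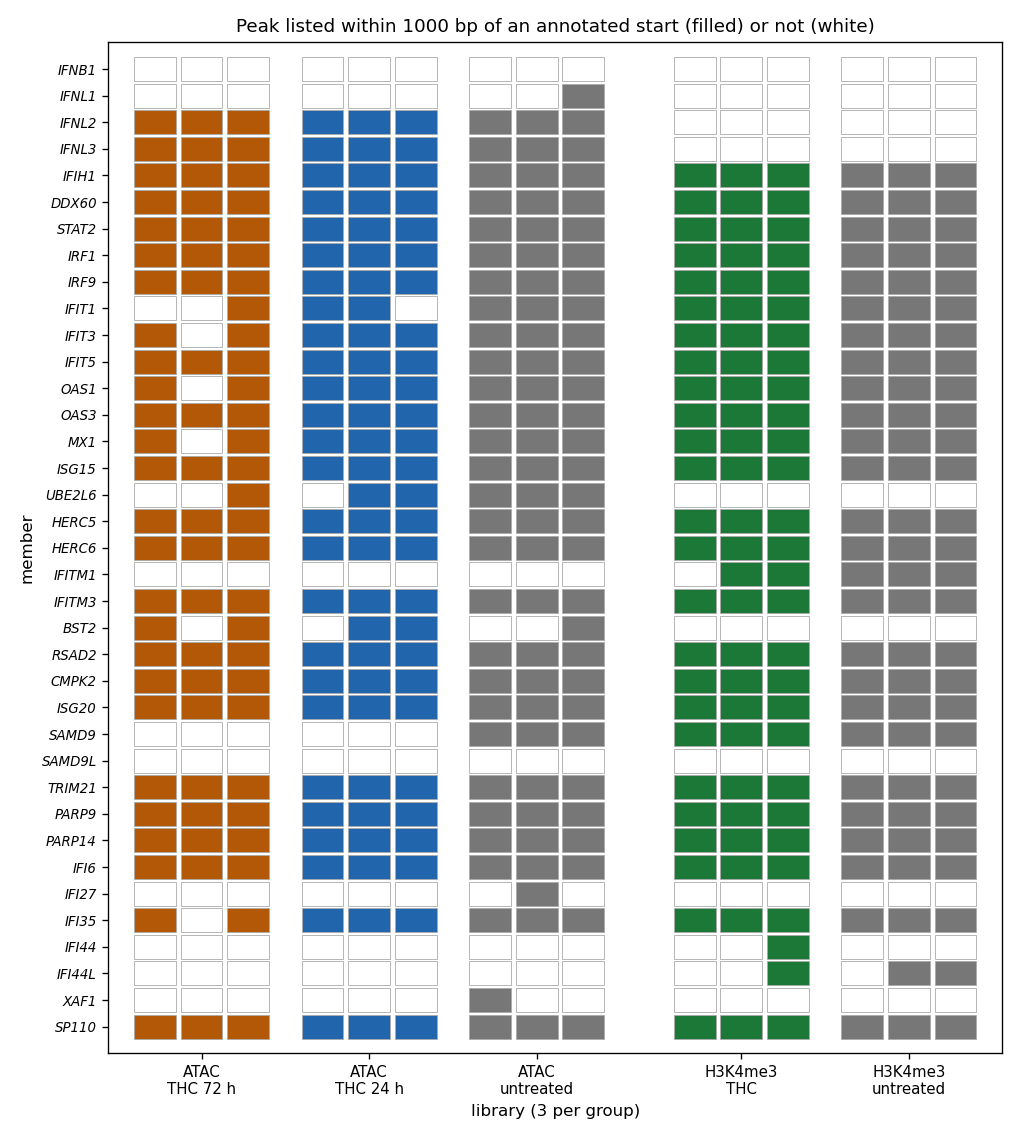
Peak listing within 1000 bases of an annotated start for 37 members (rows) in 15 libraries (columns, 3 per group: ATAC at THC 72 h, THC 24 h and untreated, H3K4me3 with THC and untreated). A filled cell is a listed peak; SAMD9 is the only row filled in 3 untreated and in 0 of 6 THC ATAC libraries, and its H3K4me3 cells are filled in all 6.

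SAMD9 rests on narrow peaks, 57 to 83 bases wide in untreated cells, and its loss ended at both times with an overlap of at least 200 bases, with a stricter peak threshold (-log10 q of at least 5) and with an equal number of peaks per library. Other members were lost there instead, TRIM21 at 72 h with the stricter threshold (1.42% of genes) and IFITM3 at 24 h with equal numbers of peaks (0.177% of genes). IFIT1 had an ATAC peak in 1 of 3 libraries at 72 h, 2 of 3 at 24 h and 3 of 3 of untreated cells, 69 to 104 bases wide, and H3K4me3 in all 6. Leaving out 72 h replicate 3 raised the number of members with a lost ATAC peak at 72 h to 3 (IFIT1, UBE2L6 and SAMD9), and the share of all genes to 3.57%, against 0.898% with it. IFI44, at 43.1 ± 0.638 TPM in untreated cells, had no ATAC peak and an H3K4me3 peak in 1 of 3 THC libraries and in none of untreated cells. For the 9 members without an annotated start in the promoter table (IFIT2, IFITM2, MX2, OAS2, OASL, USP18, DHX58, IRF7 and TRIM22) both ends of the gene were examined. OASL, USP18 and IRF7 had an end with ATAC and H3K4me3 peaks in every library, IFIT2 an end with H3K4me3 in all 6 and ATAC in 1 of 3 libraries at 72 h, 3 of 3 at 24 h and 3 of 3 of untreated cells, and MX2 and TRIM22 had no peak at either end.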

How the data were processed

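Of the 25 samples, 24 had files: 9 of RNA-seq, 9 of ATAC-seq and 6 of CUT&RUN for H3K4me3. The IgG control was not analysed here. Groups and replicate numbers came from the labels. The authors deposited RNA levels as TPM, with an equal total in each library. A stranded total RNA kit was used, per the labels' protocols, and the use of strand in quantification is not given in the sources used. The submitters' processing notes name GRCh38 as the build, MACS2 2.2.7.1 and MACS3, Picard, SAMtools, Bowtie2 and Salmon, with FastQC and Trim Galore, without roles. ATAC read shifting, duplicate removal and the H3K4me3 control are not given there. Peaks were deposited by the authors as 1 list per library. Their fold enrichment (a ratio) and score were deposited too and not used. The deposited -log10 p ranked the peaks in the alternative with equal numbers of peaks. The deposited -log10 q served as a filter in an alternative.

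The members and all gene lists were chosen with earlier results of these data known. Values in every library are given for members called in a comparison with a log2 change of at least 1 and a group mean of at least 5 TPM, and for the 4 interferons. From other lists, called genes with a change of at least 1 at 24 h were named, at most 4 per list, with IRF3, RIGI, IFNLR1 and IFNAR1. A gene that this rule names is not reported here. CCL5 was given in full as the only non-member, and CD68, CGAS, STING1, DTX3L, RELA, JUN, IFNE and PTPRC were named after their values were seen. Promoters were shown for the 4 members with a match and the largest 24 h rise.

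RNA was tested in R 4.3.3 with limma 3.58.1 (3 groups of 3, 6 residual degrees of freedom, eBayes with trend) on log2(TPM + 1), with Benjamini-Hochberg adjustment over 13753 genes. Tested on simulated data with known answers, the RNA script recovered planted changes. Peaks and promoters were processed in Python 3.11.15 (pandas 2.3.3, numpy 2.4.6, matplotlib 3.10.9) on chromosomes 1 to 22 and X, with starts and coordinates from RefSeq GRCh38.p14. Alternatives were a pseudocount of 0.1, no filter or a minimum of 5 TPM, centring, rescaling without mitochondrial and ferritin genes, a replicate block, each library left out, windows of 500 and 2500 bases, an overlap of 200 bases, a -log10 q of at least 5 and equal numbers of peaks (38495 in ATAC and 30098 in H3K4me3 lists).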

Additional observations from a re-analysis of the deposited data

Results flagged for a closer look

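Called changes of 4 members went in opposite directions at the 2 THC times, higher at 24 h and lower at 72 h than untreated cells. This order, with 72 h also called below 24 h, was found in 209 genes (1.52%) of all those tested. Genes with the reverse order are not part of that share. The 4 members are given for those opposite calls, so the difference between the times is a description. IFIT1 was below untreated cells at 72 h and above them at 24 h, and differed by -2.44 between 72 h and 24 h, HERC5 by -1.87, DDX60 by -1.41 and IFI44 by -1.06. In each of these 4 genes every 72 h library was below every untreated library and every 24 h library above every untreated one. All 4 hold the response-element-like run of letters in their promoter windows, as do 25 of the 37 members with an entry (67.6%).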

How the results depend on the processing

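TPM keeps no depth, so the precision of low members such as IFNB1 cannot be derived from counts, and unlisted peaks may lie below a caller's threshold. Of 96 changes (32 tested members in 3 comparisons), 73 kept direction and call under all RNA alternatives in which they were fitted and 23 did not in at least 1. At the minimum of 5 TPM, 9 of the changes, those of HERC5, MX1 and IFI27, could not be fitted. After centring, members lower at 24 h numbered 2 instead of 4, higher at 72 h 11 instead of 18, higher at 72 h than at 24 h 4 instead of 9, and higher at 72 h than both untreated and 24 h cells 3 instead of 7. This last pattern was not counted over all tested genes after centring. Centring also reversed IFI6 at 24 h (0.01) and, between the times, IFIH1 (-0.04), OAS3 (-0.10), TRIM21 (-0.02) and IFI35 (-0.05). Without 1 library each, members numbered 24 to 25 higher and 3 to 4 lower at 24 h, 15 to 19 higher and 7 to 7 lower at 72 h, 8 to 9 higher and 19 to 20 lower at 72 h than at 24 h, 18 to 19 that faded and 6 to 7 highest at 72 h. Under the replicate block, which the labels' shared numbers allow, 25 members were higher at 24 h, and no other count of members changed. Deviations of same-numbered libraries correlated at -0.199 to 0.252, and those of differently numbered ones at -0.235 to 0.219. The numbers thus gave no sign of pairing, which so few libraries cannot exclude. For ATAC, a -log10 q of at least 5 left 0 members with a lost peak at 24 h, against 0.354% of genes. It left 14 members (37.8%) and 8 (21.6%) listed in all libraries at 24 h and 72 h, against 39.2% and 17% of genes. An overlap of 200 bases left 0 lost at both times, against 0.253% of genes at 24 h and 0.398% at 72 h. Equal peak numbers left 0 lost at 72 h, against 0.297% of genes. Without 1 library each, ATAC gave 0 to 0 gained at either time, 1 to 1 lost and 25 to 26 listed at 24 h, and 1 to 3 lost and 21 to 25 listed at 72 h; H3K4me3 gave 0 to 0 gained, 0 to 0 lost and 25 to 26 listed. The causes of these changes were not tested.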

Other observations

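Among further interferon-stimulated genes outside the 46 members, several were highest at 72 h, as STAT2, IRF1 and IRF9 were. These genes were chosen after their values were seen. Of all tested genes, 27.4% were called above both untreated and 24 h cells at 72 h. IFI16, a nuclear DNA-binding protein, had 14.6, 16.3 and 16.6 TPM at 72 h, 2.54, 3.93 and 3.53 TPM at 24 h, and 2.66, 2.46 and 2.86 TPM in untreated cells (2.2 at 72 h against untreated, limma adjusted p = 7.65e-08). LAMP3, a lysosomal membrane glycoprotein, had 22, 21.4 and 25.7 TPM at 72 h, 6.06, 6.61 and 5.85 TPM at 24 h, and 3.04, 2.88 and 2.75 TPM in untreated cells. Both APOL6 (2.14) and GBP2 (2.07) were likewise higher at 72 h than in untreated cells. TLR3, an endosomal sensor of double-stranded RNA, had 12.8, 11.6 and 11.1 TPM at 72 h, 3.26, 3.26 and 3.50 TPM at 24 h, and 4.98, 5.86 and 5.76 TPM in untreated cells, so it was lower at 24 h (-0.59) and higher at 72 h (0.98) than untreated. GBP1, a GTPase related to GBP2, had 5.06, 5.42 and 4.84 TPM at 72 h, 9.82, 11.8 and 10.1 TPM at 24 h, and 11.7, 10.8 and 10.2 TPM in untreated cells, a fall by 0.96 at 72 h.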
